A study of Mus musculus and Homo sapiens with 107 samples.

Results

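A549 and H1299 are established cell lines grown from human non-small-cell lung tumours, and the libraries described here show how their RNA differed without an inhibitor. They are the 6 RNA-seq libraries of cells kept in DMSO, 3 for A549 and 3 for H1299, of 107 samples in the series, chosen by their labels alone. Both lines are labelled as wild type and were held in DMSO, the solvent control, for 12 h. The DMSO concentration is 0.05% in the titles and the protocol but 0.5% in the treatment field of the labels. A549 was grown in F12-K medium and H1299 in RPMI, each with fetal bovine serum and antibiotics, and the libraries had 9 cycles of PCR for A549 and 8 for H1299. Line, medium and PCR cycles therefore cannot be told apart. Each line is a single culture-adapted tumour, so a difference between them is a difference between these lines and not between kinds of lung cancer. The 6 further RNA-seq libraries, of the same lines given 5 µM BRM014, which inhibits the ATPases of SWI/SNF chromatin remodellers, entered the fit for the estimate of spread and served as separate libraries in which each gap could be measured again.

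As background, A549 was derived from a lung adenocarcinoma and H1299 from a lymph node metastasis of a large-cell lung carcinoma. Adenocarcinomas are usually related to the secretory and alveolar cells of the lung epithelium. Lines of this cancer are commonly described by 3 properties: how much of that lineage they keep, whether they are epithelial or mesenchymal in state, and which tumour suppressors they have lost. The files name genes only by Ensembl identifier, and the name tables at hand were for mouse and matched 0 of the 25530 identifiers. Lineage markers, epithelial and mesenchymal genes and tumour suppressors were therefore not looked up, and the labelled cell type was not checked against markers. The results below describe genes by number, level and gap. Only 4 identifiers are given, 2 for each line, and whether any of them belongs to these groups of genes was not checked.

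The DMSO libraries held 40684360 to 50177678 counts in A549 and 28412113 to 40072734 in H1299. Replicates were close in both lines. The common biological coefficient of variation, the part of the spread between libraries beyond counting noise, was 4.76% in A549 and 2.39% in H1299. No replicate pair was as close as sampling noise alone, with a chi-square per degree of freedom of 2.54 to 10.1 in A549 and 2.2 to 2.32 in H1299. That measure grows with depth, and the A549 libraries were deeper. For genes with a mean of at least 5 CPM, the SD of log2 differences within pairs was similar in both lines. It was 0.12 to 0.17 in A549 and 0.14 to 0.17 in H1299. A549 replicate 1 lay apart from the other two of its line, with 5.82 and 10.1 against 2.54. The labels do not say whether the replicates were separate cultures, so the p-values below rest on variation among these libraries that could be technical.

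Most genes detected in either line were detected in both. A gene was taken as on where all 3 DMSO libraries of a line had at least 1 CPM (library-scaled counts, with TMM factors for composition). By that measure 12678 of the 16466 genes tested were on in A549 and 12740 in H1299. Both lines shared 11577 of these, which was 91.3% of the A549 genes and 90.9% of the H1299 genes. Among the shared genes, 8078 (69.8%) had fitted levels within 2-fold of each other, and the median absolute log2 difference was 0.62. The lines thus held largely the same set of detected genes, at levels that differed.

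Under the edgeR quasi-likelihood test with Benjamini-Hochberg adjustment, 14114 of the 16466 genes (85.7%) differed between the lines. H1299 had the higher level for 7071 of them (42.9%), A549 for 7043 (42.8%). The 3 libraries of one line did not overlap the 3 of the other for 86.6% of genes. At these shares a call alone says little about a single gene, and the size of the gap was used instead. Among the genes past the threshold, those at least 2-fold higher numbered 3640 for H1299 (22.1%) and 3512 for A549 (21.3%). Those at least 8-fold higher numbered 1204 for H1299 (7.31%) and 1287 for A549 (7.82%). The number of wide gaps was therefore close in both directions, although the division of all called genes changed with the scaling. When libraries were scaled by their totals alone, the median log2 difference of all genes, H1299 minus A549, was 0.24 where TMM factors gave 0.02, and the calls divided into 8384 towards H1299 and 5823 towards A549. At 8-fold or more, the same scaling gave 1315 genes for H1299 and 1201 for A549, which turned the order of these numbers.

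**Figure D1:**
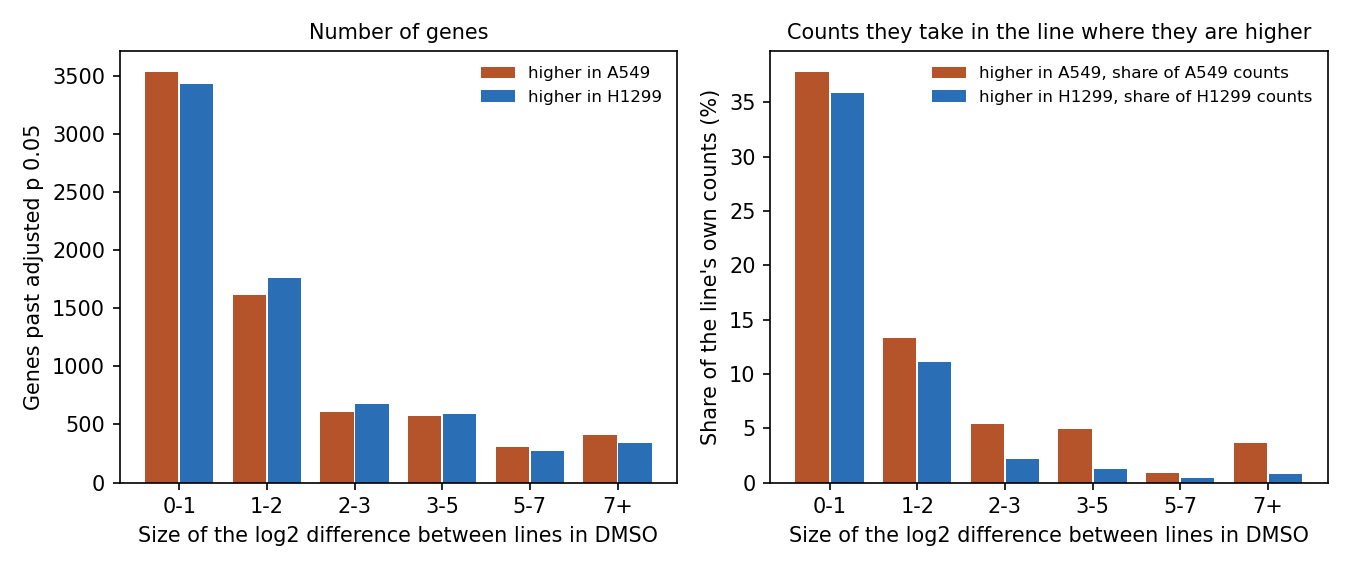
The left panel gives the number of genes past an adjusted p of 0.05 in each range of the absolute log2 difference between the lines in DMSO, by the line with the higher level. The right panel gives the share of that line's own counts which these genes took; the numbers of genes are close at every size, while the A549 share stands above the H1299 share, most plainly from a log2 difference of 2 upwards.

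The genes with wide gaps took unequal shares of the 2 transcriptomes. The 1287 genes at least 8-fold higher in A549 took 9.70%, 9.56% and 9.37% of the counts of the A549 DMSO libraries. The 1204 genes at least 8-fold higher in H1299 took 2.52%, 2.55% and 2.55% of the counts of the H1299 DMSO libraries. The A549 genes had a mean share of 9.54 ± 0.169% (SD, n = 3) in their own line and of 0.466 ± 0.00267% in H1299. The H1299 genes had a mean share of 2.54 ± 0.0163% in their own line and of 0.0902 ± 0.000732% in A549. The libraries of one line lay far from those of the other for both sets, but the sets were chosen by the same difference, so this is a description and no test is given. A share of counts depends on transcript length as well as on level, which was not corrected because gene lengths were not used here.

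In both lines a small number of genes carried a part of the share, and most of it lay in the other genes. The 10 genes with the most counts among those at least 8-fold higher in A549 took 3.1% of all A549 counts, and the remaining genes of that set took 6.44%. For H1299 the same values were 0.61% and 1.93%, so the shares still differed once the 10 genes were set aside. In A549, 166 of the 1287 genes had a mean of at least 100 CPM in DMSO and 21 had at least 1000 CPM. In H1299, 48 of the 1204 genes had at least 100 CPM and 0 had at least 1000 CPM. The median level of the set was 7.32 CPM in A549 and 3.88 CPM in H1299. Of the 100 genes with the most counts in each line, 53 were the same in both. The A549 list held 21 genes at least 8-fold higher in A549 and 49 at least 2-fold higher. The H1299 list held 3 and 16 genes higher in H1299 by those sizes. Over all genes tested these shares were 7.82% and 21.3% for A549 and 7.31% and 22.1% for H1299. Each list was picked by level in its own line, which favours genes higher in that line.

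The balance between the directions changed with the level of expression. Genes were divided into quartiles by their mean over all 6 DMSO libraries. In the lowest quartile (median 0.55 CPM), 15.0% of genes were at least 8-fold higher in H1299 and 13.6% in A549. In the second quartile (median 8.08 CPM) these shares were 11.01% and 9.84%. In the third quartile (median 35.9 CPM) they were 2.23% and 4.32%, and in the highest (median 118 CPM) 0.972% and 3.5%, which is 40 genes for H1299 and 144 for A549. Wide gaps were thus somewhat more often towards H1299 among genes of low level and more often towards A549 among genes of high level. The median absolute log2 difference fell from 1.60 in the lowest quartile to 0.56 in the highest. The share of genes called rose from 74.6% to 91.1%, as counts per gene grew.

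**Figure D2:**
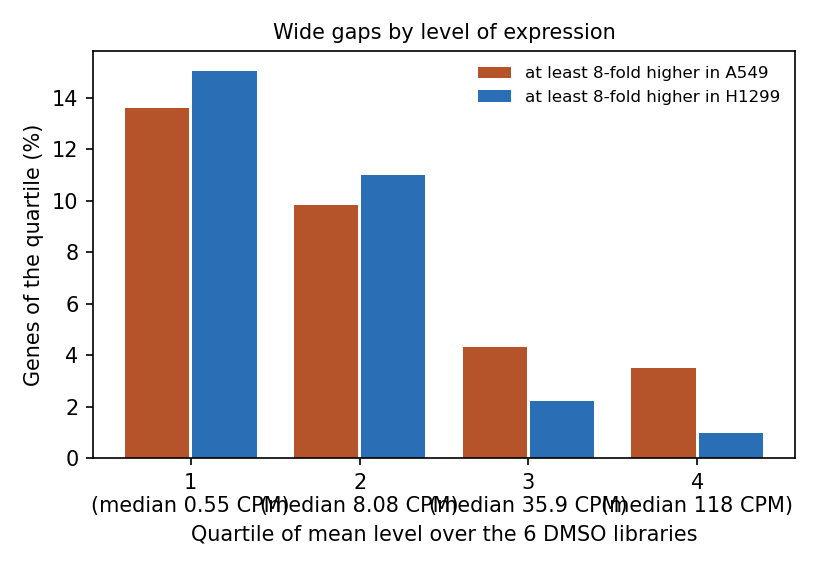
Bars give the share of genes in each quartile of mean DMSO level (CPM) that were at least 8-fold higher in A549 or in H1299. The H1299 bar is the taller in the 2 lower quartiles, and the A549 bar in the 2 upper quartiles.

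Some genes were detected in one line and almost absent from the other. A gene was taken as off in a line where its 3 DMSO libraries held no more than 3 counts in total. The limit was the same for both lines, although every A549 library was deeper than those of H1299. The part of depth in the numbers below was not tested. There were 270 genes on in A549 and off in H1299 (1.64% of those tested), of which 114 had 0 counts in all 3 H1299 DMSO libraries. There were 245 genes on in H1299 and off in A549 (1.49%), of which 100 had 0 counts in A549. These genes were mostly of low level in the line that expressed them, with a median of 7.24 CPM in A549 and 5.24 CPM in H1299. The A549 set reached higher levels, with 20 genes at 100 CPM or more and a highest mean of 3457 CPM. The H1299 set had 2 genes at 100 CPM or more and a highest mean of 435 CPM. Total RNA from a culture cannot show whether such a gene is silent in every cell or expressed in a few.

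The widest gap towards H1299 that the rule for single genes allowed, with at least 10 counts in the lower line, was that of ENSG00000156414. Its level was 168, 167 and 170 CPM in the 3 H1299 libraries and 0.167, 0.109 and 0.111 CPM in the A549 libraries, which rest on 7, 4 and 5 counts. The lines did not overlap. The fitted log2 difference, H1299 minus A549, was 10.31 (adjusted p = 7.71e-31, edgeR). The ratio of summed counts per scaled library total was 1300 (95% exact interval 801 to 2280, counting error only).

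Under the same rule, the widest gap towards A549 was that of ENSG00000213626. Genes with fewer than 10 counts in the lower line, among them those on in a single line, were not ranked. Its level was 384, 372 and 379 CPM in A549 and 0.0237, 0.149 and 0.132 CPM in H1299, from 1, 5 and 4 counts. The groups were again far apart. The fitted log2 difference was -11.92 (adjusted p = 1.79e-30, edgeR), and the count ratio towards A549 was 4020 (95% exact interval 2180 to 8370, counting error only). Summed A549 counts of this gene were 46839 in DMSO and 12359 with BRM014, a response not tested here. With BRM014 the log2 difference was -13.02, which rests on 1 count in H1299. The change in the gap did not pass the interaction test (adjusted p = 0.47, edgeR). The 10 genes with the widest gaps under the same rule had log2 differences of 8.61 to 10.31 towards H1299 and of -9.66 to -11.92 towards A549. Their levels in the higher line were 36.7 to 795 CPM in H1299 and 147 to 4098 CPM in A549.

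**Figure D3:**
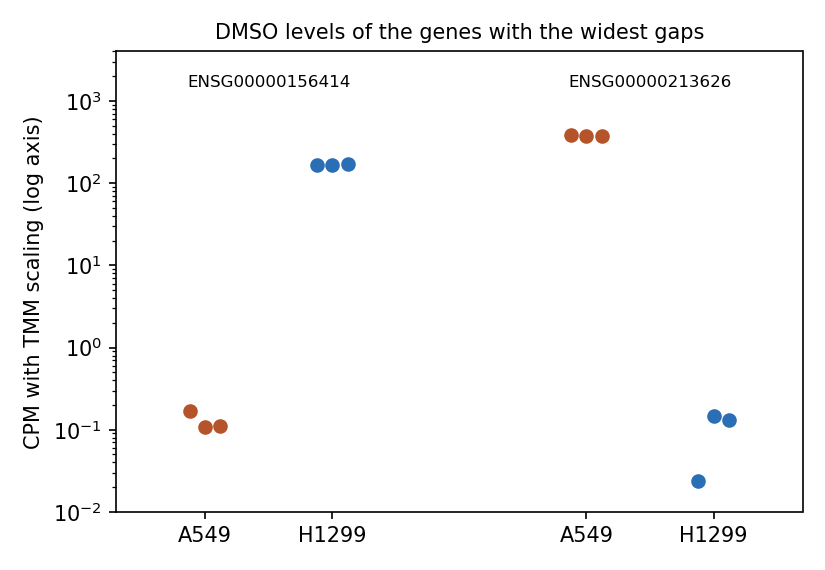
Points are the CPM (log axis, TMM scaling) of single DMSO libraries. The genes are those with the widest gap in each direction among genes with at least 10 counts in the lower line. ENSG00000156414 lies at 167 to 170 CPM in H1299 and below 0.2 CPM in A549, and ENSG00000213626 at 372 to 384 CPM in A549 and below 0.2 CPM in H1299.

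The join of the tables left out identifiers that only one of them lists. There were 1511 such identifiers for A549 and 1177 for H1299. Most had few or no counts, with a median of 1 count over the 3 DMSO libraries in each line. Means of at least 1 CPM were reached by 87 of them in A549 and 53 in H1299, which is 0.677% and 0.405% of all rows at that level. Both tables also hold rows with 0 counts in every library, 2064 for A549 and 2267 for H1299. A row that a table does not list was therefore not read as 0, and no fold is given for these genes.

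The identifier with the highest level among those listed for A549 alone was ENSG00000165092. It had 5712, 5960 and 6054 CPM of library totals in DMSO (5909 ± 176 CPM, SD, n = 3), or 0.591% of all counts. It stood far above the next of these identifiers, at 174 CPM. With BRM014 its A549 level was 5013 to 5302 CPM. Among those listed for H1299 alone, the highest was ENSG00000147889, with 56.6, 55.2 and 54.2 CPM (55.4 ± 1.2 CPM). The next stood at 46.8 CPM. With BRM014 its H1299 level was 52.3 to 58.1 CPM, which overlaps the DMSO values. Identifiers listed for A549 alone took 0.723% to 0.757% of the counts of the A549 DMSO libraries, and at most 0.152% without ENSG00000165092. Those listed for H1299 alone took 0.049% to 0.0504% of the H1299 counts.

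The gaps seen in DMSO were measured again in the BRM014 libraries, which are not part of the DMSO contrast. Both contrasts came from the same fit, with a shared filter and estimate of spread, so the second is not an independent test. Line and PCR cycles cannot be told apart in the BRM014 libraries either. With BRM014, 14077 genes (85.5%) differed between the lines. Genes at least 8-fold higher made up 6.93% of all genes for H1299 and 7.55% for A549. Of the 1204 genes at least 8-fold higher in H1299 in DMSO, 1203 had the same direction with BRM014 and 1034 (85.9%) passed the test again at 8-fold or more. Of the 1287 genes at least 8-fold higher in A549, 1286 had the same direction and 1115 (86.6%) passed again at 8-fold or more. In neither set did a gene pass the test in the opposite direction (0 and 0 genes). The gap was under 2-fold for 7 and 10 genes. Median log2 differences went from 5.06 in DMSO to 4.87 with BRM014 for the H1299 set and from -5.38 to -5.12 for the A549 set. The sets were chosen for wide gaps in DMSO, and the part of that choice in the smaller gaps with BRM014 was not tested.

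The shares of counts moved little by comparison with the distance between the lines. The A549 set took 7.99%, 7.89% and 7.79% of the counts of the A549 BRM014 libraries, all below the 9.37% to 9.70% in DMSO. The H1299 set took 2.44%, 2.36% and 2.42% in the H1299 BRM014 libraries, just below its 2.52% to 2.55% in DMSO. Of the genes on in a single line, 38 of the 270 A549 genes had more than 3 counts in total over the H1299 BRM014 libraries. For the 245 H1299 genes, 45 did so over the A549 BRM014 libraries, which were deeper. All these genes were chosen by that same limit in DMSO. The part of that choice, of counting noise and of depth in these numbers was not tested. A mean of 1 CPM in the other line with BRM014 was reached by 0 genes of either set. In their own line, the mean with BRM014 was below 1 CPM for 39 of the 270 A549 genes and 6 of the 245 H1299 genes. Whether these proportions differ between the lines was not tested. The same proportion over all genes on in each line was not counted. Since a level of at least 1 CPM in DMSO was part of the choice, these numbers do not show a trait of these genes.

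**Figure D4:**
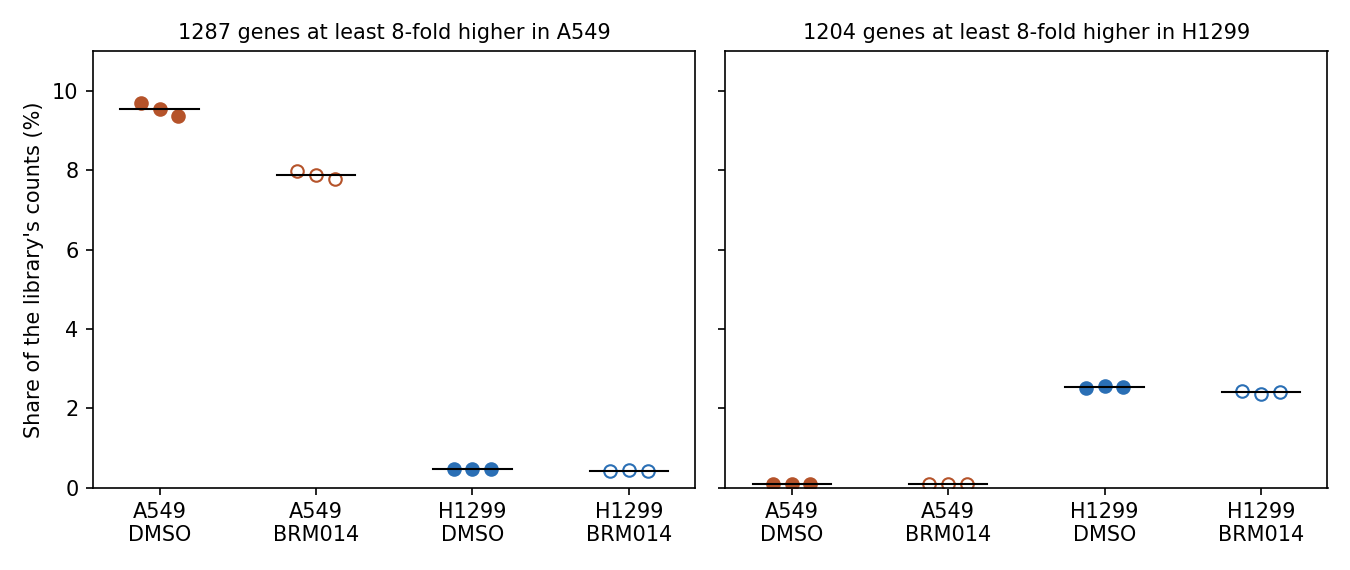
Each point is a library and each horizontal line the mean of 3. The y axis is the share of the library's counts taken by genes at least 8-fold higher in A549 (left) or in H1299 (right) in DMSO. Filled points are DMSO and open points BRM014 libraries; the A549 set lies at 9.37% to 9.70% in A549 DMSO libraries and at 7.79% to 7.99% with BRM014, and the H1299 set stays between 2.36% and 2.55% in H1299.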

How the data were processed

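The authors deposited raw counts per gene, whole numbers without normalization, as a table for each line. The submitters' processing notes name STAR 2.7.3a, Bowtie 1.2.2, cutadapt 1.14, DESeq2 and featureCounts, with build hg38. What each did here, the annotation and the strand setting were not stated there, so counts of overlapping or antisense genes are uncertain. Per the labels' protocols, libraries were stranded total RNA depleted of ribosomal RNA, with spike-in RNA added by cell number. No row is named for spike-ins, so a level says how a gene stood within its library, not per cell.

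The tables were joined on the 22842 identifiers they share. In R 4.3.3, edgeR 4.0.16 kept 16466 genes (filterByExpr, minimum count 10, total 15), scaled libraries with TMM factors and fitted all 12 RNA-seq libraries, with a coefficient for each group. Contrasts are H1299 minus A549, tested two-sided at an adjusted p of 0.05. Intervals cover counting error only. The fit was tested on simulated counts in which 200 genes were changed between the lines and all others were equal. In the real data most genes differed, so that simulation does not show how the scaling behaves here. In A549, 2 BRM014 columns share a header and carry no replicate number. The 95 samples of other assays were not used here.

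Named genes were to be markers of lineage and state, and in each direction the 10 widest gaps past the threshold with at least 5 CPM in the higher line, no overlap of libraries and at least 10 counts in the lower line. The 22 lists (328 entries) and a promoter motif search needed symbols and were not tested. Since the tables pair no identifier with a name, only the widest is given, with the highest identifier that each table alone lists. The classes by size of gap, the on and off genes and the shares of counts were defined after the data were seen, and the comparison and lists were chosen with earlier results of these data known. Alternatives were limma-voom (limma 3.58.1), DESeq2 1.42.0, other scaling, filters and joins, a replicate block and leaving out libraries.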

Additional observations from a re-analysis of the deposited data

Results flagged for a closer look

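The response of ENSG00000156414 to BRM014 differed between the lines by the interaction test, in log2 terms by 1.89 (the H1299 response less the A549 response, adjusted p = 0.0332, edgeR). The value rests on few A549 counts, 16 in DMSO and 4 with BRM014, summed over 3 libraries each, against 17850 and 19035 in H1299.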

How the results depend on the processing

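The number of genes that differed in DMSO lay between 10658 and 14886 over 15 alternatives, within 1.5 times its value of 14114. Both ends of that range came from other filters on low counts, which test other numbers of genes. Shares of the genes tested were not compared. The filter of at least 5 CPM in 3 libraries, which tests fewer genes, left 4304 genes at 2-fold or more (2132 higher in H1299, 2172 in A549), 585 and 683 at 8-fold or more, and 154 and 131 genes on in A549 or in H1299 alone. The A549 share of counts in genes at least 8-fold higher there was 8.25% with library totals, 9.26% with that filter and 10.2% with unlisted rows entered as 0. The H1299 share was 2.89%, 2.50% and 2.59% under the same settings. Leaving out a DMSO library at a time gave 9.52% to 9.81% and 2.48% to 2.55%, 13879 to 14017 genes that differed, 1224 to 1263 and 1297 to 1347 genes at 8-fold or more for H1299 and A549, and 274 to 348 and 248 to 297 genes on in A549 or H1299 alone. With all libraries these last numbers were 270 and 245. The limits for on and off were kept over fewer libraries, which makes them easier to meet. A test against 2-fold gave 6113 genes. The gap of ENSG00000156414 lay between 10.17 and 10.54 and that of ENSG00000213626 between -12.35 and -11.36, past the threshold in each of 15 alternatives (highest adjusted p 4.88e-18 and 3.44e-16). With the replicate number as a block, the 6 DMSO libraries gave 13722 genes, against 13796 without the block. Deviations from the group means correlated at -0.00442, 0.0159 and -0.0512 between same-numbered libraries of the lines, so the numbers are not taken as pairs. A549 replicates 1 and 3 correlated best with H1299 replicates 3 and 2, at 0.0609 and 0.0585. Only A549 replicate 2 correlated best with its own number. List counts under the alternatives were not run, for want of symbols. Depth limits most the genes in the lowest quartile and the lower side of the widest gaps. Under the rule for single genes, that side rests on 10 and 16 counts.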
